A study of Mus musculus with 6 samples.

Results

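The genes described here are the 47 mouse genes with a numbered symbol of solute carrier family 25 (Slc25a1 to Slc25a54), found by their symbol among the 49315 genes of a count table of sorted hepatocytes. By the design text, the control libraries (3) are GFP-negative and the miR-206 libraries (3) GFP-positive hepatocytes of male C57BL/6J mice, 8 weeks old when given a hydrodynamic injection of 20 µg of a transposon plasmid, pT3-TTR-miR-206-IRES-GFP, and 0.8 µg of a Sleeping Beauty transposase plasmid, and perfused 4 weeks later. It takes them from the same 3 mice, so that GFP, plasmid uptake and the sort would differ between the groups together with miR-206. The sample labels instead give wild-type cells with an empty vector as the control and miR-206 overexpression as the other group. Which description holds for the controls is unresolved, and the groups are called control and miR-206 below. The TTR promoter drives the insert in hepatocytes that took up the plasmid. Mir206 had 0 counts throughout the 6 libraries (an upper limit of 0.722 CPM, counts relative to library size, in the shallowest), and libraries made for mRNA do not measure the mature microRNA, so the labels could not be checked on it.

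Most SLC25 proteins are carriers of the inner mitochondrial membrane, and a few sit in other membranes. The inner membrane carriers exchange nucleotides, phosphate, carboxylates, amino acids and cofactors between the cytosol and the matrix, which the membrane itself does not let through. In hepatocytes they link mitochondria to urea synthesis, glucose output, fatty acid oxidation and lipid synthesis, because each of these pathways has steps on both sides of the membrane.

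Total counts ran from 8966590 to 15244017 in the control libraries and from 4157947 to 5724329 in the miR-206 libraries. Mitochondrially encoded genes took 9.16% to 36.0% of the counts in the controls and 11.3% to 63.8% in the miR-206 libraries. Across genes, log2 CPM of control 2 and control 3 correlated at 0.965, and control 1 with these at 0.854 and 0.856, so control 1 was the odd one of its group. Olfactory and vomeronasal receptor genes, which hepatocytes are not known to express, gave a background, per exonic kb, of 1.22 to 2.91 counts in control and 3.56 to 5.26 counts in miR-206 libraries. At that density, background would supply 0.398% to 3.75% of all SLC25 counts in the controls and 21.5% to 24.6% in the miR-206 libraries. Summed CPM of hepatocyte identity genes was 76100 to 137000 in the controls and 29000 to 135000 in the miR-206 libraries, with 17 of 24 lower in the test. Marker sums of other liver cells were higher in every control for Kupffer cells (527 to 1240 against 92.5 to 135 CPM, 12 of 12 tested markers lower in the test), sinusoidal endothelium (405 to 517 against 153 to 291, 12 of 12), cholangiocytes (558 to 2680 against 52.8 to 210, 5 of 7) and lymphocytes (277 to 363 against 80.2 to 142, 4 of 9, with 3 of 9 higher). They overlapped for stellate cells (223 to 462 against 151 to 236, 5 of 10) and red cells (34.1 to 101 against 21.3 to 66.6, 1 of 6). None of these markers was at 0 in all 3 miR-206 libraries, and the part of other cells in the results below was not tested.

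With the counts as deposited, transcripts of the most abundant carriers were far lower in the miR-206 than in the control libraries. The adenine nucleotide carrier gene Slc25a5, the phosphate carrier gene Slc25a3 and the liver-enriched Slc25a47 fell by more than 4 on the log2 scale. Of the 45 carriers with enough counts to be tested, 27 fell, 4 rose and 14 did not pass (edgeR quasi-likelihood test, Benjamini-Hochberg adjusted p under 0.05 over all genes). Over all 24382 genes tested, 29.6% fell and 25.8% rose, and over the 17004 protein-coding ones 40.6% fell and 18.8% rose. The groups did not overlap, with miR-206 lower, for 27 carriers, against 30.3% of all genes, and with miR-206 higher for 4, against 36.7%. The median log2 fold change was -2.08 over the tested carriers and 0.45 over all tested genes, and 37 of the 45 carriers lay below the median of all genes. In bulk RNA, fewer cells of a type and less RNA per cell cannot be told apart. With each library left out in turn, 26 of the 27 kept their call, the exception being Slc25a16. Over all genes, 34.7%, 24.4% and 24.4% fell without control 1, 2 or 3 and 25.4%, 22.3% and 24.2% without miR-206 library 1, 2 or 3. The shares that rose were 41.8%, 16.7% and 16.3%, and 8.0%, 10.6% and 7.06%. With other settings all-gene falls and rises were 31.3% and 24.5% with DESeq2, 29.2% and 24.1% without mitochondrially encoded genes, 17.9% and 12.4% with no filter, 35.1% and 32.1% at a minimum count of 30, and 27.5% and 22.0% with a replicate block.

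The size and sign of a change depended on how libraries were scaled. The median of all genes was 0.45 with TMM factors, 0.35 with RLE factors, 1.25 with upper-quartile factors, 1.47 with library size alone and 2.62 when libraries were scaled on hepatocyte identity genes. The carriers' median followed it, at -2.08, -2.21, -1.10, -0.87 and 0.57. Under the last scaling 3 carriers fell, Slc25a3 (-1.74), Slc25a5 (-1.45) and Slc25a47 (-1.69), and 16 rose. Among the carriers that fell with TMM, values turned positive there for Slc25a16, Slc25a17, Slc25a23, Slc25a37, Slc25a38, Slc25a42, Slc25a44, Slc25a45 and Slc25a46. The carriers' median lay below that of all genes by a similar amount each time, with differences of -2.53, -2.56, -2.34, -2.34 and -2.05. Rescaling moves all genes by nearly the same amount, so this likeness was fixed in advance and is no check. Where the set of genes changed, the difference varied more, in both directions. It was -2.97 with no filter on low counts and -2.64 without mitochondrially encoded genes. With stricter sets it was -1.625 at a minimum count of 30 and -0.12 after background subtraction (minimum of 10 times). Over all genes, 29.6%, 30.8%, 19.7%, 15.5% and 2.9% fell and 25.8%, 23.0%, 43.6%, 47.7% and 62.4% rose under the same 5 scalings. The statements on single carriers below use TMM unless another scale is named.

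**Figure D1:**
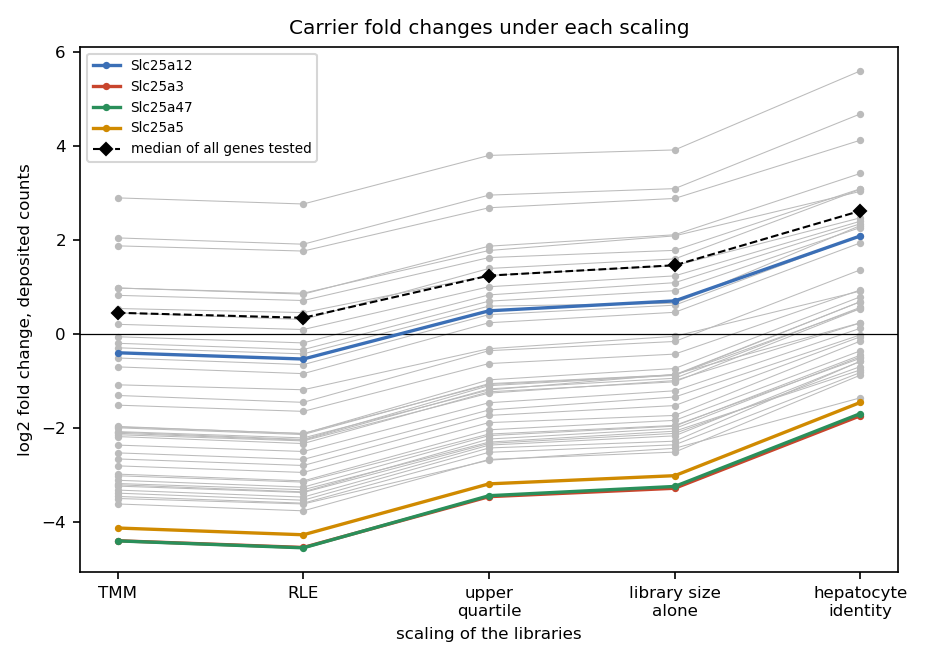
Log2 fold change (miR-206 over control, y axis) of 44 of the 45 tested SLC25 carriers under 5 scalings of the libraries (x axis), with counts as deposited. Each grey line is a carrier, 4 are coloured, and the dashed line is the median of all genes tested, which climbs from 0.45 with TMM to 2.62 with hepatocyte identity scaling while Slc25a3, Slc25a5 and Slc25a47 stay below 0 throughout.

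The adenine nucleotide and phosphate carriers feed ATP synthesis: ADP and phosphate enter the matrix and ATP leaves it. Of 12 tested members, 8 fell and 2 rose, with a median of -2.13. Slc25a5 (ENSMUSG00000016319, chromosome X, 36795651 to 36798807), which encodes the adenine nucleotide translocase 2, was the most abundant carrier per kb of exon, at 560.0 CPM per kb in the controls. It was counted at 2809, 11538 and 10568 in controls 1 to 3 and at 350, 329 and 413 in miR-206 replicates 1 to 3. All miR-206 libraries lay below all controls, and control 1 was the lowest control. Its level of 922 ± 477 CPM in control cells was 52.7 ± 7.87 CPM in miR-206 cells (SD, n = 3 per group), which gave a log2 fold of -4.13 with SE 0.62 (edgeR adjusted p = 0.000602). Slc25a3 (ENSMUSG00000061904, chromosome 10, 91116574 to 91124059), which encodes the phosphate carrier, was counted at 1325, 5231 and 4935 against 137, 126 and 155. Its mean of 426 ± 217 CPM dropped to 20.2 ± 2.80 CPM (-4.40, SE 0.60, edgeR adjusted p = 0.000406), and again the groups did not overlap.

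Slc25a4, the translocase form best known from heart and muscle, was counted at 304, 286 and 322 in control cells against 28, 12 and 27 (-3.50, SE 0.35, adjusted p = 0.000271). It differed from Slc25a5 in that control 1 was not low, and its miR-206 counts were only 2.03 times the expected background. Slc25a25 and Slc25a23 encode calcium-regulated exchangers of ATP-Mg for phosphate, which set the size of the matrix nucleotide pool. Slc25a25 was counted at 693, 2151 and 2136 against 162, 194 and 183 (-2.81) and Slc25a23 at 165, 782 and 692 against 128, 93 and 68 (-2.11). The peroxisomal carrier gene Slc25a17 was counted at 342, 678 and 633 against 134, 61 and 109 (-2.14). These 3 carriers also fell, less far than Slc25a5 and Slc25a3, and their signs were positive under hepatocyte scaling for Slc25a23 (0.57) and Slc25a17 (0.24). Slc25a42, which carries coenzyme A (-2.18, adjusted p = 0.00692), and Slc25a16 (-1.31, adjusted p = 0.0449) also fell. The miR-206 counts of Slc25a42 were only 1.42 times the expected background, so the size of its fall is uncertain. Slc25a16 had the largest adjusted p among the 27 and its groups overlapped: counts were 51, 308 and 236 against 62, 44 and 81. Its call was lost with the replicate block (adjusted p = 0.0672) and without control 2, control 3 or any one miR-206 library (0.0594 to 0.144). Over all 16 alternative fits that held Slc25a16, it passed as lower in 5 and as higher in 1. Slc25a24 did not pass (-1.08, adjusted p = 0.0723), nor did Slc25a54 (0.98, adjusted p = 0.192). Slc25a41, a further ATP-Mg carrier, was too low to be tested (2, 3 and 3 against 19, 6 and 8 counts). Slc25a31 and Slc25a43 rose and are described with the other carriers near background.

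**Figure D2:**
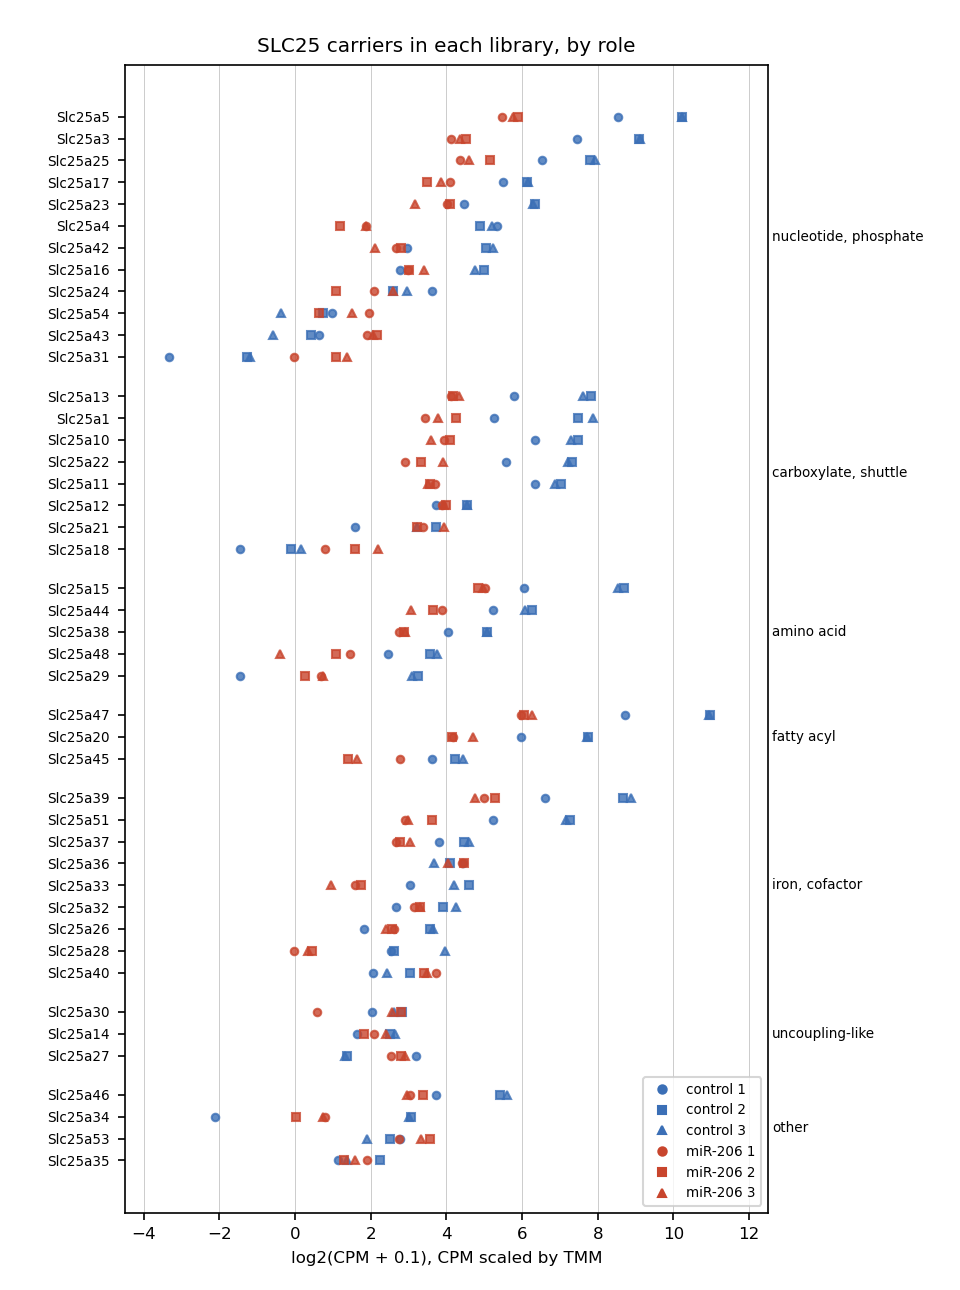
Level of 44 of the 45 tested SLC25 carriers in each library as log2(CPM + 0.1), with CPM scaled by TMM (x axis), one row per carrier, grouped by role. Blue points are the 3 control and red points the 3 miR-206 libraries. For the abundant carriers at the top of each group the red points lie to the left of all blue ones, as for Slc25a5 (922 against 52.7 CPM), while for Slc25a12, Slc25a36 and the uncoupling-like carriers they mix.

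The carboxylate carriers and the malate-aspartate shuttle move citrate, malate, oxoglutarate, aspartate and glutamate, and so tie the citrate cycle to lipid synthesis, glucose output and the handling of reducing equivalents. Of 8 tested members, 5 fell and 1 rose, with a median of -3.15. Slc25a1, the citrate carrier that supplies the cytosol with acetyl units, was counted at 288, 1729 and 2073 against 84, 105 and 104 (-3.39, SE 0.65, adjusted p = 0.00203). Slc25a10, the dicarboxylate carrier, was counted at 609, 1719 and 1385 against 121, 93 and 91 (-3.24). Slc25a11, the oxoglutarate carrier, was counted at 610, 1258 and 1032 against 102, 65 and 87 (-3.18). In all 3 every miR-206 library was below every control. Slc25a13 encodes citrin, the liver form of the aspartate-glutamate carrier, and Slc25a12 encodes aralar, the form better known from brain and muscle. Slc25a13 was counted at 417, 2171 and 1721 against 136, 98 and 152 and fell (-3.11, SE 0.56, adjusted p = 0.00139), whereas Slc25a12 was counted at 100, 226 and 205 against 116, 86 and 116 and did not pass (-0.40, adjusted p = 0.290). Slc25a22, a glutamate carrier, was counted at 359, 1549 and 1306 against 58, 55 and 115 and fell (-3.46, SE 0.56, adjusted p = 0.000810). Slc25a21, the oxoadipate carrier of lysine and tryptophan breakdown, did not pass (0.45, adjusted p = 0.427).

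The amino acid carriers include Slc25a15, the ornithine carrier without which the urea cycle cannot run. Of 5 tested members, 4 fell and none rose, with a median of -2.36. Slc25a15 (ENSMUSG00000031482, chromosome 8, 22375551 to 22398597) was counted at 498, 4007 and 3274 against 257, 157 and 238, and fell from 284 ± 190 to 30.7 ± 2.01 CPM (-3.21, SE 0.66, adjusted p = 0.00293). Control 1 lay nearer to the miR-206 libraries than to the other controls on the count scale. Slc25a44, which carries branched-chain amino acids (-2.36, adjusted p = 0.00112), Slc25a38, the glycine carrier used for haem synthesis (-1.98, adjusted p = 0.00145), and Slc25a48 (-2.53, adjusted p = 0.00420) also fell. Slc25a48 had 21, 11 and 5 counts in the miR-206 libraries, 0.784 times the expected background, so the size of its fall is not known. Slc25a29, a carrier of basic amino acids, was counted at 2, 90 and 74 against 12, 6 and 12, with control 1 below all miR-206 libraries, and did not pass (adjusted p = 0.0650). The second ornithine carrier gene, Slc25a2, was too low to be tested (19, 12 and 5 against 0, 3 and 12 counts).

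Slc25a20, the carnitine-acylcarnitine carrier that brings long-chain fatty acids into the matrix, was counted at 472, 2077 and 1867 against 143, 97 and 200 and fell (-2.98, SE 0.54, adjusted p = 0.00158). Slc25a47 (ENSMUSG00000048856, chromosome 12, 108836046 to 108856815) and Slc25a45 were listed with it. Slc25a47 had the most counts of the family, 3193, 19198 and 17199 against 495, 367 and 588, and fell from 1454 ± 894 to 68.8 ± 7.39 CPM (-4.40, SE 0.70, adjusted p = 0.000790). Slc25a45 fell as well (-2.08, adjusted p = 0.00306), from 92, 180 and 190 to 53, 14 and 23 counts. All 3 of this list thus fell.

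Iron, glutathione, nucleotide and vitamin carriers serve haem and iron-sulphur cluster assembly, redox balance and mitochondrial DNA and RNA synthesis. Of 10 tested members, 6 fell and 1 rose, with a median of -1.63. Slc25a39, a glutathione carrier, was counted at 731, 3949 and 4136 against 253, 213 and 205 (-3.32, SE 0.63, adjusted p = 0.00186). Slc25a51, which carries NAD, was counted at 284, 1475 and 1273 against 58, 67 and 60 (-3.62, SE 0.58, adjusted p = 0.000796). The pyrimidine nucleotide carrier Slc25a33 fell too (-2.66). Slc25a33 was counted at 61, 232 and 161 against 23, 18 and 14, whereas its paralog Slc25a36 was counted at 164, 164 and 112 against 166, 120 and 126 and did not pass (0.21, adjusted p = 0.572). The iron importers are the mitoferrins. Slc25a37, mitoferrin 1, best known from red cell precursors, was counted at 106, 211 and 214 against 49, 37 and 62. It fell (-1.51, SE 0.33, adjusted p = 0.00362), at 1.76 times the expected background in the miR-206 libraries. Red cell marker sums overlapped between the groups, and of the 6 tested red cell markers 1 fell, Alas2 (-2.83, edgeR adjusted p = 0.00207). The part of red cells in the fall of Slc25a37 was not tested. Slc25a28, mitoferrin 2, was counted at 43, 58 and 136 against 7, 7 and 9 and passed as lower (adjusted p = 0.00146), at 0.438 times the expected background in the miR-206 libraries. Slc25a26, the carrier of S-adenosylmethionine (-0.70, adjusted p = 0.217), and Slc25a32, the folate carrier (-0.51, adjusted p = 0.288), did not pass.

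None of the 3 carriers related to the uncoupling proteins passed: Slc25a14 (-0.20), Slc25a27 (0.54) and Slc25a30 (-0.29). Of the 4 remaining carriers, Slc25a46, which acts in mitochondrial shape at the outer membrane, fell (-1.995, adjusted p = 0.00548), and Slc25a34 (-1.97), Slc25a35 (-0.06) and Slc25a53 (0.82) did not pass. Slc25a34 was counted at 1, 80 and 70 against 13, 5 and 12, again with control 1 lowest of all.

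The 4 carriers that rose were all low in counts. Slc25a40, a second glutathione carrier, was counted at 31, 78 and 47 in control cells against 103, 58 and 85 (0.98, SE 0.36, adjusted p = 0.0382). Its call was lost with the replicate block (adjusted p = 0.0549), RLE factors (0.0707), DESeq2 (0.0881), no filter (0.206), without mitochondrially encoded genes (0.0557) and without control 3 (0.147). Slc25a43 was counted at 11, 12 and 5 against 29, 24 and 31 (1.88, SE 0.54, adjusted p = 0.0147). Slc25a18, the second glutamate carrier, was counted at 2, 8 and 9 against 13, 16 and 34 (2.05, SE 0.69, adjusted p = 0.0284). Raw counts of Slc25a43, Slc25a18 and Slc25a31 were higher in every miR-206 library, and with TMM scaling this held for Slc25a40 as well. Slc25a31, the testis form of the nucleotide translocase, had 0, 3 and 3 counts against 7, 11 and 19 (adjusted p = 0.0204), and no fold is given for it. In the miR-206 libraries the 4 lay at 1.24 to 3.37 times the background expected from the receptor genes, and the background of these libraries was the higher one. Whether background produced the rises was not tested. None of the 4 passed in any of the 3 fits that left out a miR-206 library (adjusted p of 0.0553 to 0.224). Slc25a43 was also lost without control 3 (0.0556), and Slc25a18 without control 2 (0.0637) or with no filter (0.0608).

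**Figure D3:**
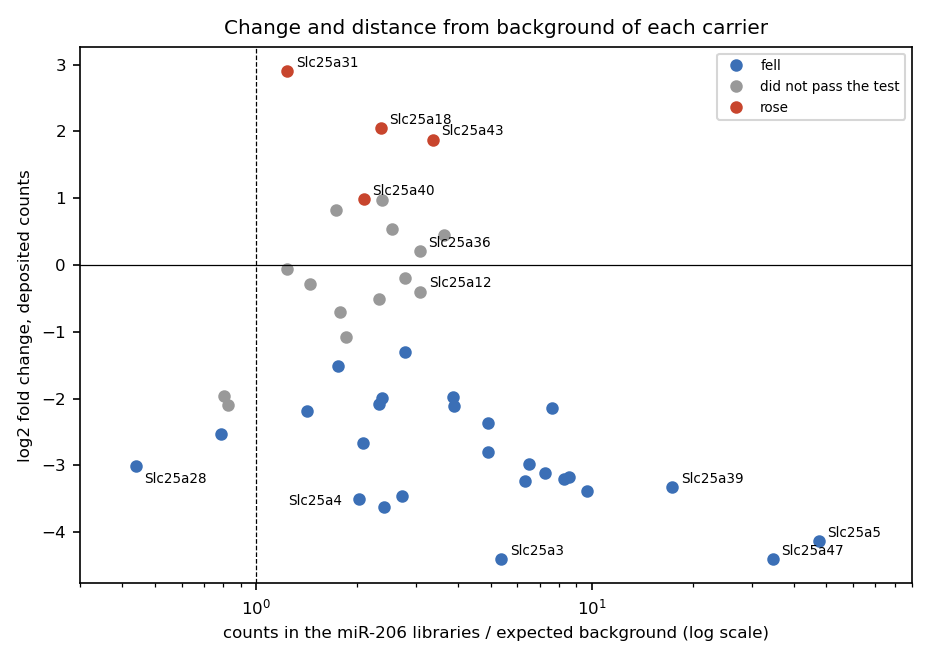
Log2 fold change of 44 of the 45 tested carriers with counts as deposited (y axis) against its counts in the miR-206 libraries as a multiple of the expected background (x axis, log scale, dashed line at 1). The 4 carriers that rose sit at 1.24 to 3.37 times the background, and Slc25a5 and Slc25a47, which fell, at 47.4 and 34.7 times.

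Counts were then compared after subtracting the expected background and keeping protein-coding genes whose mean count was at least 10 times it, with the normalisation repeated on the 4351 genes that were left. The mean was over all 6 libraries, so carriers passed largely through the controls: those kept lay at 30.3 times the background or more there and down to 2.03 times in the miR-206 libraries. Of the 21 carriers among them, 4 fell and none rose, against 15.6% and 19.4% of the genes tested there (35.1% in either direction), so the carriers' share of falls was near that of all genes. The carriers' median was -0.25 and that of all genes -0.13. Slc25a3 had a log2 fold change of -1.60 (SE 0.28, adjusted p = 0.00717), Slc25a47 -1.29 (SE 0.37, adjusted p = 0.0290), Slc25a5 -1.06 (SE 0.30, adjusted p = 0.0289) and Slc25a51 -1.23 (SE 0.41, adjusted p = 0.0482). The other 17 ranged from -1.69 to 0.64 without passing, with Slc25a4 the lowest (-1.69, adjusted p = 0.0582) and Slc25a22 next (-1.004, adjusted p = 0.0923). Most of the shift from the first fit came with the choice of genes and its normalisation: on the same 4351 genes without subtraction Slc25a5 stood at -1.40, Slc25a47 at -1.62 and Slc25a3 at -1.68, and 3 carriers fell (19.1% of genes fell and 21.5% rose). Slc25a3 fell in all 27 alternative fits, Slc25a5 and Slc25a47 in 23 each, Slc25a51 in 20. After subtraction 1 carrier fell without control 2, control 3 or miR-206 replicate 1, and 2 without miR-206 replicate 3. Of all genes, 17.4%, 6.04% and 4.62% fell and 22.9%, 8.62% and 7.65% rose without control replicate 1, 2 or 3, and 11.7%, 17.6% and 6.57% fell and 13.7%, 18.8% and 10.3% rose without miR-206 replicate 1, 2 or 3. In the remaining subtracted fits the falls and rises were 30.6% and 5.77% by library size, 15.4% and 18.6% with a replicate block, 17.3% and 7.24% with hepatocyte scaling, and 24.8% and 21.7% at a minimum of 5 times.

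**Figure D4:**
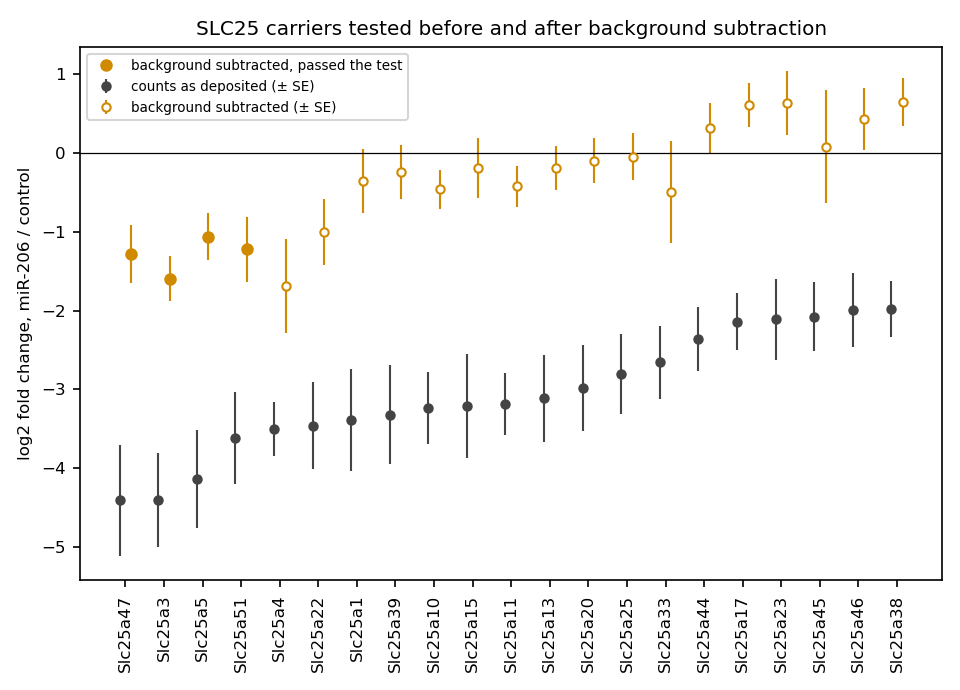
Log2 fold change (miR-206 over control, ± SE, y axis) of the 21 carriers tested both with counts as deposited (dark) and after background subtraction (orange, filled where the adjusted p was under 0.05). The dark points all lie at or below -1.98, and the orange ones lie from -1.69 to 0.64, with Slc25a47, Slc25a3, Slc25a5 and Slc25a51 filled.

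Ratios between carriers of related substrates within a library do not depend on scaling. They were computed for 8 pairs, with 0.5 added to each count. Slc25a13 had 4.15, 9.59 and 8.38 times the counts of Slc25a12 in controls 1 to 3 and 1.17, 1.14 and 1.31 times in the miR-206 libraries, so that citrin counts outnumbered aralar counts in the controls and were close to them in the miR-206 libraries. The difference of the mean log2 ratios was -2.53 (exact two-sided permutation p = 0.1, adjusted over the 8 pairs 0.133), and -2.33 after background subtraction. Slc25a39 had 23.2, 50.3 and 87.1 times the counts of Slc25a40, against 2.45, 3.65 and 2.40 (difference -4.07, exact permutation p = 0.1, -4.11 after subtraction). Slc25a33 had 0.374, 1.41 and 1.44 times those of Slc25a36, against 0.141, 0.154 and 0.115 (-2.75, exact permutation p = 0.1, -3.45 after subtraction). In these 3 pairs the groups did not overlap before or after subtraction. Few counts were left after it for Slc25a33 in the miR-206 libraries (13, 11 and 4) and for Slc25a40 in control 1 (7). The subtracted differences of the pairs with Slc25a33 and Slc25a40 are therefore uncertain. The ratio of Slc25a22 to Slc25a18 fell from 138 to 182 down to 3.35 to 4.33, and that of Slc25a28 to Slc25a37 from 0.277 to 0.636 down to 0.152 to 0.200. Both pairs hold a carrier at or below background in at least 1 library, and neither has a value after subtraction.

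The ratio of Slc25a10 to Slc25a11 was 0.998, 1.37 and 1.34 in control cells against 1.19, 1.43 and 1.05 (difference -0.02, exact permutation p = 1.0), and these 2 carriers thus kept nearly the same proportion in all 6 libraries. For Slc25a5 over Slc25a4 the ratio was 9.23, 40.3 and 32.8 against 12.3, 26.4 and 15, with overlap (-0.44, exact permutation p = 0.7), and the sign turned after subtraction (0.62). The ratio of Slc25a23 to Slc25a25 was 0.239, 0.364 and 0.324 against 0.791, 0.481 and 0.373, higher in every miR-206 library (0.78, exact permutation p = 0.1), with overlap after subtraction. The smallest p that 3 against 3 libraries can give is 0.1, so no pair could pass. Non-overlap was also common among single genes, as given above.

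**Figure D5:**
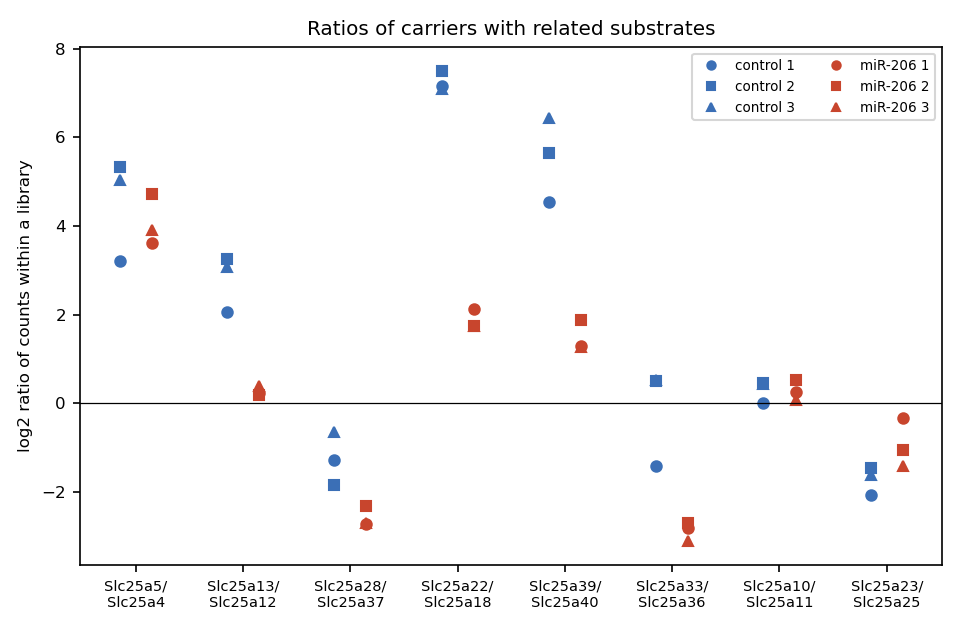
Log2 ratio of the counts of 2 carriers within each library (y axis) for 8 pairs of carriers with related substrates (x axis), with blue points for the 3 controls and red for the 3 miR-206 libraries. Slc25a13 over Slc25a12 drops from 2.06 to 3.26 in the controls to 0.19 to 0.39, while Slc25a10 over Slc25a11 stays between 0 and 0.51.

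The family's own make-up shifted in the same way. Slc25a47 supplied 21.4%, 29.9% and 29.3% of a control library's SLC25 counts but 12.1%, 11.6% and 13.9% of a miR-206 library's. Slc25a5 supplied 18.9%, 17.9% and 18% against 8.53%, 10.4% and 9.78%, and Slc25a3 8.90%, 8.14% and 8.42% against 3.34%, 3.97% and 3.67%. Each of these shares was lower in all miR-206 libraries, also in the mean after background subtraction (27.2% against 15.7%, 18.5% against 12.1% and 8.57% against 3.85%). Slc25a15, at 3.35%, 6.23% and 5.58% against 6.26%, 4.95% and 5.64%, and Slc25a39, at 4.91%, 6.14% and 7.05% against 6.17%, 6.71% and 4.85%, kept shares that overlapped. Shares within 1 total are tied to each other, and these were not tested.

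Genes that work with the carriers were taken from 4 lists and read from the fit of the deposited counts. Of the 64 tested, 52 fell and 3 rose, where 29.6% of all genes fell and 25.8% rose, and 40.6% and 18.8% of protein-coding genes. Of 13 tested genes of the route that inserts carriers into the inner membrane, 11 fell, with a median of -2.90. They include Timm13 (-4.17, adjusted p = 0.000384) and Timm8b (-4.04, adjusted p = 0.000317), small chaperones of the intermembrane space, and the import receptor gene Tomm22 (-2.90, adjusted p = 0.000332). Timm22, the channel that inserts carriers, fell as well (-2.23, adjusted p = 0.000562), while Tomm40 (-1.15, adjusted p = 0.0630) and Agk (0.85, adjusted p = 0.0748) did not pass. Of 22 other transporters of the mitochondrial membranes, 16 fell and 1 rose, with a median of -2.32. Among them were Vdac1 (-2.97, adjusted p = 0.000579) and Vdac2 (-3.06, adjusted p = 0.000592), the pores of the outer membrane, and the sodium-calcium exchanger gene Slc8b1 (-3.70, adjusted p = 0.000271). The pyruvate carrier genes Mpc1 (-3.56) and Mpc2 (-3.68) fell together, whereas the calcium uniporter gene Mcu did not pass (-0.01, adjusted p = 0.970).

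Of 24 tested enzymes that use or supply what the carriers move, 22 fell, with a median of -3.79. Gpt, alanine aminotransferase (-4.42, adjusted p = 0.000410), Acly, which splits the citrate exported by Slc25a1 (-3.09, adjusted p = 0.000406), and Mdh2, the matrix malate dehydrogenase (-3.95, adjusted p = 0.000423), had the smallest p-values. Among the 5 SLC25 proteins without a numbered symbol, Ucp2 (-4.27, adjusted p = 0.000271), Mtch1 (-4.17, adjusted p = 0.000461) and Mtch2 (-3.33, adjusted p = 0.00106) fell, and Ucp1 (2.65, adjusted p = 0.00612) and Ucp3 (2.49, adjusted p = 0.00681) rose. Control counts of the 2 genes that rose were low, so the size of their folds is uncertain. Ucp1 was counted at 2, 11 and 10 against 24, 30 and 61, and Ucp3 at 5, 16 and 3 against 36, 27 and 45. In the miR-206 libraries Ucp1 lay at 5.02 and Ucp3 at 2.46 times the background. Without miR-206 replicate 3 neither passed (adjusted p = 0.0674 for Ucp1 and 0.0569 for Ucp3), and neither was kept for the fit after background subtraction. Ucp2, which macrophages are known to express, lay at 1.20 times the background in the miR-206 libraries and Mtch1 at 0.598 times. After background subtraction 14 of 48 tested partners fell and 3 rose, where 15.6% of all genes fell and 19.4% rose. Of the named partners that fell, several no longer passed there (edgeR adjusted p of 0.055 to 0.729). These were Timm22 (0.21), Tomm22 (-0.20), Vdac1 (-0.10), Vdac2 (-0.45), Mpc1 (-0.59), Mpc2 (-0.83), Acly (-0.48) and Mtch2 (-0.60). Timm13 (-1.23), Timm8b (-1.11), Slc8b1 (-2.31), Gpt (-1.50), Mdh2 (-1.15), Ucp2 and Mtch1 still passed as lower. Of these, Slc8b1 (1.53 times the background in the miR-206 libraries), Ucp2 and Mtch1 were kept for this fit through their control counts. Near or below background, subtraction leaves few or no miR-206 counts, so their lower calls were largely fixed in advance. The same holds for Timm29 (0.676 times) and the enzyme gene Crat (0.65 times), which are among the 14.

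The vector's microRNA, mmu-miR-206-3p, pairs with targets through its seed, bases 2 to 8, which are in capitals in the RefSeq sequence below. Matches to the seed in the longest annotated 3' UTR are shown for 5 carriers, as the DNA of the coding strand (GRCm38, GENCODE M21 transcripts), with the match in capitals and an A after it where the match is an 8mer.
mmu-miR-206-3p, chr1:20679055-20679076, plus strand: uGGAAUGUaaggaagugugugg
Slc25a23, chr17:57044716-57044738, minus strand: gctaggtctACATTCCAagcacc
Slc25a25, chr2:32415146-32415168, minus strand: accagcctcACATTCCAcgtgtg
Slc25a17, chr15:81319524-81319546, minus strand: acaccacagACATTCCAgtcatt
Slc25a22, chr7:141430868-141430889, minus strand: gaaatctgtACATTCCtcaagc
Slc25a40, chr5:8453737-8453758, plus strand: gcattgttcACATTCCccagat
Of 44 tested carriers with an annotated 3' UTR, 9 (20.5%) held ACATTCC, against 1971 of 16865 such genes (11.7%), with median 3' UTR lengths of 1443.5 and 1272 bases. Of the 9, 4 fell (Slc25a17, Slc25a22, Slc25a23 and Slc25a25), 1 rose (Slc25a40) and 4 did not pass (Slc25a27, Slc25a30, Slc25a36 and Slc25a53). Slc25a23 held 3 matches. The median log2 fold change was -0.29 for carriers with a match and -2.09 for those without, and -0.29 and -0.58 over the 16865 tested genes with an annotated 3' UTR. The carriers that fell most, Slc25a47, Slc25a3 and Slc25a5, held none in these 3' UTRs. A match of letters is a description and not a measured site.

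Promoters were available in RefSeq (GRCm38) for 36 of the 47 carriers, as 250 bases before to 50 after each start. They were searched on both strands for the NRF1 core (GCGCA, any base, then GCGC) and CCGGAAG, an ETS core bound by GABPA, because both factors are known regulators of nuclear genes for mitochondrial proteins. The 2 motifs did not overlap in the promoter printed below. The NRF1 core was in 2 of 36 carriers (5.56%), Slc25a3 and Slc25a31, against 5.19% of all genes with a promoter, and the ETS core in 7 (19.4%) against 9.93%. Of those 7, Slc25a3, Slc25a4, Slc25a17, Slc25a20, Slc25a25 and Slc25a38 fell and Slc25a54 did not pass. Among all tested carriers, with or without the motif, 27 of 45 fell. That base includes carriers without a promoter to search, so it is not the same set. A link between the motif and the falls was not tested. Slc25a3, the carrier that fell in every fit, held both, and Slc25a47, the carrier with the most counts, held neither. Their promoters are printed with matches in capitals.
Slc25a3, chr10:91123918-91124217, minus strand: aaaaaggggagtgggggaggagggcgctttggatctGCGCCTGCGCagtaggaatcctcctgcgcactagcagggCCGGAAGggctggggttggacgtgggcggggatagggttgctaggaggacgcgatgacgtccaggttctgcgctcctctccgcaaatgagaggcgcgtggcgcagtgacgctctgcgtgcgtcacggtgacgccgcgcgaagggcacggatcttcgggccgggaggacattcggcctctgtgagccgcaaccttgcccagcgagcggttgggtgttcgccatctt
Slc25a47, chr12:108850879-108851178, plus strand: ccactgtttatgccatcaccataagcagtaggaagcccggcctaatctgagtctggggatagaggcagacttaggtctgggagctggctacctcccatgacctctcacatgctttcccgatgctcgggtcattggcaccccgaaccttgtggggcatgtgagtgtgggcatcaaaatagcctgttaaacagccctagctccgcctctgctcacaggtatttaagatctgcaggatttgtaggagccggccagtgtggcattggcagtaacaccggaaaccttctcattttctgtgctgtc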

How the data were processed

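The authors deposited raw counts per Ensembl gene, whole numbers with 1 column per library. The submitters' processing notes name GRCm38 and mm10. Aligner, counter, annotation release and strandedness: not given in the sources used here. The counts of close paralogs and of the 14 carriers whose exons overlap another gene are therefore uncertain. GENCODE M21 (GRCm38) gave positions and exonic lengths for 49056 of 49315 genes.

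Genes passing filterByExpr (minimum count 10) received TMM factors, and the test was that of edgeR 4.0.16 (quasi-likelihood, robust, group as the single term) in R 4.3.3. CPM are TMM-scaled, except marker sums, which use total counts. Expected background is the receptor density (1400 genes, 5120 exonic kb) times a gene's exonic length. Alternatives were other scalings, filters, DESeq2 1.42.0, background subtraction, left-out libraries and a replicate block. Total counts of 4157947 to 15244017 give an upper limit of 3 counts, or 0.197 to 0.722 CPM, for a gene at 0, which covers counting error only. The edgeR step was run on simulated data in which a small set of genes changed, with no added background. That run cannot check the choice of scaling or the background in these data.

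All members, roles and lists were chosen with earlier results of these data known. The carriers were named, except 1 that is not reported here and stays in the counts. Values per library were given for the 12 highest per exonic kb, the paired carriers, those that rose and those that fell in both fits, and Slc25a16, Slc25a29, Slc25a34, Slc25a41, Slc25a45, Slc25a48 and Slc25a2 were chosen after their values were seen. In partner lists the 3 with the smallest p were named, and Timm22, Timm29, Tomm40, Agk, Mpc1, Mpc2, Mcu, Crat, Ucp1 and Ucp3 were chosen after their values were seen. p-values measure the spread between libraries and treat all 6 as separate samples, whereas the design text has 3 mice giving 2 fractions each.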

Additional observations from a re-analysis of the deposited data

How the results depend on the processing

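The number of carriers that fell was 27 in the fit reported first, and leaving out any 1 library gave 26 to 32. The number that rose was 4, with a range of 0 to 6 over the same fits. Upper-quartile factors gave 25 falls and 8 rises, and library size alone 18 falls and 8 rises, where 19.7% and 15.5% of all genes fell. With no filter on low counts 29 fell and 2 rose, and with hepatocyte identity scaling 16 rose and 3 fell. With background subtracted 4 fell and 0 rose (minimum of 10 times), 8 and 0 with library size alone, and 8 and 2 with a minimum of 5 times. After subtraction 1 to 4 fell and 0 to 1 rose with 1 library left out. Of the partners 52 fell and 3 rose, and over the fits that each omit a library these were 51 to 55 and 1 to 5. With hepatocyte identity scaling 19 partners fell and 13 rose, 8 rose with upper-quartile factors and with library size alone, 5 with a minimum count of 30, and with background subtracted 14 fell (minimum of 10 times), 26 and 0 (library size alone) or 32 and 5 (minimum of 5 times). Same-numbered libraries did not deviate together (correlations of 0.00818, 0.023 and -0.00644 across genes), so the numbers were not taken to pair them. With the replicate block 26 carriers fell and 3 rose, and 6 fell and 0 rose after subtraction. It ended the calls of Slc25a16 (adjusted p = 0.0672) and Slc25a40 (adjusted p = 0.0549) and changed no other call with the counts as deposited. The causes were not tested.

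Signs turned positive with hepatocyte identity scaling for the carriers' median (0.57), Slc25a12 (2.09), Slc25a14 (2.27), Slc25a16 (1.37), Slc25a17 (0.24), Slc25a23 (0.57), Slc25a24 (0.92), Slc25a26 (1.94), Slc25a29 (0.69), Slc25a30 (2.31), Slc25a32 (2.10), Slc25a34 (0.79), Slc25a35 (2.35), Slc25a37 (0.94), Slc25a38 (0.55), Slc25a42 (0.54), Slc25a44 (0.12), Slc25a45 (0.24) and Slc25a46 (0.69). With upper-quartile factors and library size alone they turned for Slc25a12 (0.50 and 0.71), Slc25a14 (0.70 and 0.92), Slc25a26 (0.24 and 0.46), Slc25a30 (0.60 and 0.66), Slc25a32 (0.41 and 0.62) and Slc25a35 (0.83 and 1.09), and with a minimum count of 30 for Slc25a12 (0.11), Slc25a30 (0.21) and Slc25a32 (0.023). With background subtracted (minimum of 10 times) they turned for Slc25a17 (0.60), Slc25a23 (0.63), Slc25a38 (0.64), Slc25a44 (0.32), Slc25a45 (0.076) and Slc25a46 (0.42), and at 5 times for Slc25a12 (1.57), Slc25a16 (0.66), Slc25a17 (0.00095) and Slc25a38 (0.034). Values near 0 changed sign for Slc25a21 (-0.023 without control replicate 1), Slc25a35 (-0.39 to 0.29 with 1 library left out, 0.012 with the block) and Slc25a36 (-0.014 with no filter, -0.040 to 0.33 with 1 library left out). The ratio of Slc25a10 to Slc25a11 differed by -0.16 to 0.089 with 1 library left out, and that of Slc25a5 to Slc25a4 by 0.62 after subtraction. The other 6 ratios kept their sign in each alternative that gave a value.

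At this depth a carrier with fewer than about 3 counts is not told from 0. Carriers near the expected background, 14 of 47 under 2 times it in the miR-206 libraries, are the least certain.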
